A study of Homo sapiens with 16 samples.

Results

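The data described here are the part of an RNA sequencing study that asks how the answer of neutrophil-like HL-60 cells to a low dose of lipoteichoic acid (LTA) differs between 24 h and 4 h of exposure. HL-60 is a human promyelocytic leukaemia cell line. The cells, of the unmodified (WT) line in a differentiated state called dHL-60, were left untreated or given 1 µg/ml of LTA from Staphylococcus aureus, and RNA was taken after 4 or 24 h. These 4 groups of 2 libraries make 8 of the 16 libraries of the series. A further 4 dHL-60 libraries, given 10 µg/ml LTA for 4 or 24 h, entered the model as 2 more groups, so that 12 libraries shared 1 estimate of the spread. The 4 libraries of undifferentiated HL-60 were not used. The sources used here do not name the agent that differentiated the cells. The labels do not say whether the 2 libraries of a group came from separate cultures, so each p-value reflects the spread between those libraries, and that spread may be technical.

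LTA is a lipid-anchored polymer of the cell wall of Gram-positive bacteria. TLR2, which works in pairs with TLR1 or TLR6 and is helped by CD14, senses bacterial lipoproteins and has been described as the receptor for LTA preparations. The adaptor MYD88 passes the signal on to the transcription factor NF-κB and to MAP kinases. NF-κB switches on cytokines and chemokines within hours, together with its own inhibitors, which limit the length of the response. Many of these messages are short-lived, while genes of differentiation and metabolism change on a slower scale. HL-60 promyelocytes make the enzymes of primary granules, and on differentiation towards neutrophils they gain chemoattractant receptors, β2 integrins and the NADPH oxidase.

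For each gene 4 differences were formed on the log2 scale. They are the response at 4 h (LTA against untreated), the response at 24 h, the control change (untreated, 24 h against 4 h) and the treated change (LTA, 24 h against 4 h). The interaction is the response at 24 h minus the response at 4 h, which equals the treated change minus the control change. A gene was called where the adjusted p of edgeR's quasi-likelihood test was under 0.05. Levels are CPM, a gene's counts relative to the library's total after TMM scaling, and changes are log2 fold changes ± SE.

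Promoters of genes from both directions of the interaction are shown first, as the 250 bases before a transcription start in RefSeq (GRCh38.p14), 5′ to 3′ on the gene's strand. CCL20 and MAP3K8, with a lower response at 24 h, are shown with matches to the κB consensus, the site of NF-κB, in capitals. CSF1R, ITGAM and CD14, with a higher response at 24 h, are shown with matches to GAGGAA, the core bound by the myeloid factor PU.1, in capitals. The windows are chr2:227813592-227813841 (plus strand) for CCL20, chr10:30433771-30434020 (plus strand, the first of 3 starts) for MAP3K8, chr5:150086555-150086804 (minus strand, the downstream one of 2 starts) for CSF1R, chr16:31259725-31259974 (plus strand) for ITGAM and chr5:140633176-140633425 (minus strand) for CD14.
CCL20: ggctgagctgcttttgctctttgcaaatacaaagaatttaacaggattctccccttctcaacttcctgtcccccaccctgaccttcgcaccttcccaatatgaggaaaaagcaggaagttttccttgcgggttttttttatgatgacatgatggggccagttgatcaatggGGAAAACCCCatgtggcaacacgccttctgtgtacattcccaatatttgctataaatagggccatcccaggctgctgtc
MAP3K8: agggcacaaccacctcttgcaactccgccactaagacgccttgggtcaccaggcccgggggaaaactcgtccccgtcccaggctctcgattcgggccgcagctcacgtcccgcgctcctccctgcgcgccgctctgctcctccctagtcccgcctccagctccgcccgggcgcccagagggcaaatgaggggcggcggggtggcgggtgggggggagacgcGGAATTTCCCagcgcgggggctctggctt
CSF1R: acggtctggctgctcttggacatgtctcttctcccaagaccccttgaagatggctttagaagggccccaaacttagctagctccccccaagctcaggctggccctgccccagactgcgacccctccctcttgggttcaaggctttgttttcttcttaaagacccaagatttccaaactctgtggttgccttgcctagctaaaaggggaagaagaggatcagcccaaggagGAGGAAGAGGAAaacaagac
ITGAM: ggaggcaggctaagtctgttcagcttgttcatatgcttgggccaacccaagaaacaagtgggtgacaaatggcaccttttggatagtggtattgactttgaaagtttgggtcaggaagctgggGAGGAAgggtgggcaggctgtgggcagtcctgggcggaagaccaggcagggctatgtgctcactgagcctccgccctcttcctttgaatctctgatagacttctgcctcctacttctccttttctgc
CD14: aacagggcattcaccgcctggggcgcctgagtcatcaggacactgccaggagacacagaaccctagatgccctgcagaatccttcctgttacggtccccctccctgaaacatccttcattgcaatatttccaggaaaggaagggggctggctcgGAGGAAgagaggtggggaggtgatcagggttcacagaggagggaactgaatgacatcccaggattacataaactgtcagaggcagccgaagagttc
The genes themselves span 227813842 to 227817556 on chromosome 2 (CCL20), 30434021 to 30461833 on chromosome 10 (MAP3K8), 150053295 to 150113365 on chromosome 5 (CSF1R), 31259975 to 31332877 on chromosome 16 (ITGAM) and 140631732 to 140633701 on chromosome 5 (CD14). Counts per gene pool its exons and do not separate coding sequence from untranslated regions.

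Both motifs were searched on both strands, overlapping matches included, in the promoters of the 9465 tested genes that the promoter table holds. The κB consensus was GGGRNNYYCC, with R for A or G, Y for C or T and N for any base. A gene counted where any of its windows held a match, so genes with more starts had more chances. The κB consensus occurred in 15.8% of the 9465 genes, in 17.4% of genes with a higher interaction and in 19% of those with a lower one. Among genes with a lower interaction whose control and treated levels both changed in the same direction, 49 of 194 genes (25.3%) held it. It was held by 13 of 22 genes of the NF-κB feedback list, 8 of 15 chemokine genes and 6 of 18 cytokine genes. In the other lists searched, 3 of 13 chemoattractant receptor genes, 3 of 19 mature neutrophil genes and 2 of 27 immediate early genes held it. GAGGAA occurred in 29.5% of the 9465 genes, in 32.9% of genes with a higher interaction and in 30.6% of those with a lower one. By class it ran from 23.8% (lower interaction, control rose and treated level fell, 10 of 42) to 41% (higher interaction, control fell and treated level rose, 93 of 227), with 29.1% for a higher interaction with the treated change alone. By list, GAGGAA was held by 8 of 15 chemokine genes, 9 of 19 mature neutrophil genes and 7 of 18 cytokine genes. The remaining lists had it in 8 of 22 (NF-κB feedback), 4 of 13 (chemoattractant receptors) and 6 of 27 genes (immediate early). Windows were chosen for display because they hold a match. The other start of CSF1R held no GAGGAA, nor did the windows of FPR1 and CCR2, and those of CXCL8, IL12B, TNFAIP2, TNF, IL1B and TLR2 held no κB match. These are descriptions of letters in a window and show neither binding nor its absence.

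A further sequence belongs to MIR155HG, the host transcript of miR-155, a microRNA known for its induction in activated myeloid cells. The mature 5p strand lies at chr21:25573983-25574006 on the plus strand and is printed with its seed, bases 2 to 8, in capitals.
hsa-miR-155-5p: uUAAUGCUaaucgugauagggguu
The libraries measured the host transcript and not the microRNA. MIR155HG stood at 1.43 and 2.18 CPM in untreated cells at 4 h, 85.9 and 162 CPM with LTA at 4 h, 1.60 and 0.661 CPM untreated at 24 h, and 0.367 and 0.393 CPM with LTA at 24 h. The 2 libraries with LTA at 4 h stood far above the other 6, and the treated and control libraries at 24 h did not overlap. The interaction was -7.69 ± 0.79 (adjusted p = 2.8e-05), with a treated change of -8.32 ± 0.45 and a control change of -0.62 ± 0.53 that was not called (adjusted p = 0.37).

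The 8 libraries held 9653374 to 16530277 gene counts, and 11866 of 23575 listed symbols passed the filter on low counts. In all 6 groups of the model the 2 libraries differed by more than counting noise (chi-square per degree of freedom 10.3 to 18.9). Neutrophil genes such as S100A8, FPR1 and ITGAM were present in every library, while the neutrophil markers ALPL, LCN2, LTF and MMP8 had at most 6 counts in any of the 8. For the named genes called in a difference, the 2 groups of that difference did not overlap in 80 of 80 cases for the response at 4 h, 67 of 67 for the response at 24 h, 74 of 74 for the control change and 84 of 84 for the treated change. Over all tested genes, called or not, the shares without overlap were 66.8%, 63%, 69.2% and 75.6%. Because only named genes already called in that same difference were counted, their full counts add no support to the calls.

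The response to 1 µg/ml LTA differed between 24 and 4 h for 2461 of 11866 genes (20.7%). It was higher at 24 h for 1582 genes (13.3%), among them the lipid antigen presenter CD1D and the macrophage growth factor receptor CSF1R. It was lower at 24 h for 879 genes (7.41%), among them the kinase MAP3K8, the inflammasome sensor NLRP3 and cyclin D1 (CCND1). The median interaction over all tested genes was 0.04. An interaction of at least 1 in size was reached by 1061 genes in the higher and 498 in the lower direction, and one of at least 3 by 151 and 48. Without untreated replicate 1 at 24 h the count was 1614, and scaling by library totals alone gave 3042 calls with 84.3% of them higher, against 64.3% with TMM.

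Behind a higher interaction lay mostly genes that LTA lowered early. Of the 1582 genes, 771 were lower with LTA at 4 h and not called at 24 h, 350 were not called at 4 h and higher at 24 h, and 262 went from lower at 4 h to higher at 24 h. A further 77 were higher at both times, 51 lower at both and 71 called at neither. Of the 879 genes with a lower interaction, 566 were higher with LTA at 4 h and not called at 24 h, 118 were not called at 4 h and lower at 24 h, and 106 were higher at both times. Going from higher to lower were 49 genes, while 38 were called at neither time and 2 were lower at both. In the response tests themselves 4594 genes (38.7%) were called at 4 h, 2214 higher (18.7%) and 2380 lower (20.1%), and 2513 (21.2%) at 24 h, 1651 higher (13.9%) and 862 lower (7.26%). The share of higher calls at 4 h, 48.2%, was 37% with upper-quartile scaling and 24.4% with library totals alone, and at 24 h it was 65.7% and 55% with upper-quartile scaling. The count at 24 h was 1139 without treated replicate 1, 1451 without untreated replicate 1 and 1593 without untreated replicate 2 at that time.

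**Figure D1:**
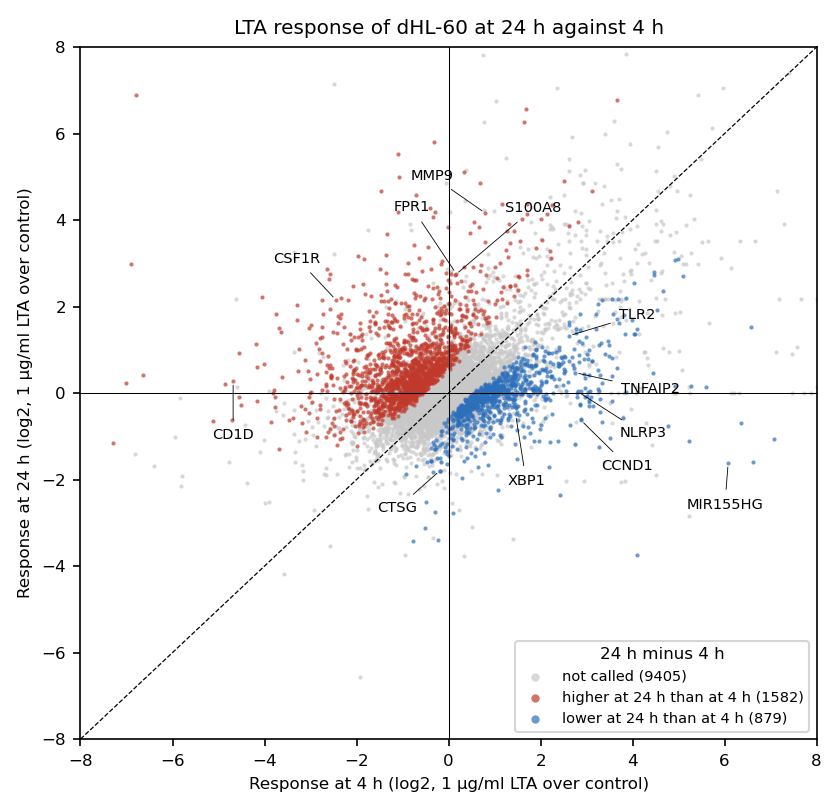
Response to 1 µg/ml LTA at 24 h (vertical) against the response at 4 h (horizontal), both as log2 fold change, for the 11866 tested genes, with values past 8 in size drawn at the edge. Red points mark the 1582 genes whose response was higher at 24 h and blue points the 879 whose response was lower; the dashed line marks equal responses, and CSF1R and MMP9 lie far above it while MIR155HG and CCND1 lie far below.

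The control moved as well as the treated cells, and each called gene was split by which of its 2 levels changed with time. In untreated cells 4853 genes (40.9%) changed between 4 and 24 h, and in treated cells 5782 (48.7%), of which 52.2% rose, or 75.1% with library totals alone. Of the 2461 genes, 1034 had a called change in treated cells alone (8.71% of tested genes), 566 in the control alone (4.77%), 453 in both in the same direction (3.82%), 354 in both in opposite directions (2.98%) and 54 in neither (0.455%). Genes with a higher interaction had 435 with a fall of the control alone, 594 with a rise of the treated level alone, and 297 in which the control fell while the treated level rose. Genes with a lower interaction had 440 with a fall of the treated level alone, 224 in which both fell, 131 with a rise of the control alone, and 57 in which the control rose while the treated level fell.

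In the lower direction the treated level made the larger move. There the treated change exceeded the control change in size for 701 of 879 genes, with a median treated change of -1.13 and a median control change of -0.02. In the higher direction the 2 levels shared the difference more evenly. The treated change was the larger for 876 genes and the control change for 706, with medians of 0.76 and -0.59. Which change was the larger was counted with TMM scaling only. With library totals alone the median treated change of all tested genes was 0.40, against 0.05 with TMM. The median control change was 0.05, against -0.04. The interaction was then higher for 2564 genes and lower for 478. The class sizes rest on single libraries in part. Without untreated replicate 1 at 24 h the control-alone class held 308 genes, the opposite class 221, the same-direction class 231 and the class with neither 23. Without treated replicate 2 at 24 h the treated-alone class held 652 and the same-direction class 268. Without untreated replicate 2 at 24 h the same-direction class held 273 and the class with neither 35, and without treated replicate 1 at 24 h the opposite class held 226 and the class with neither 25.

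**Figure D2:**
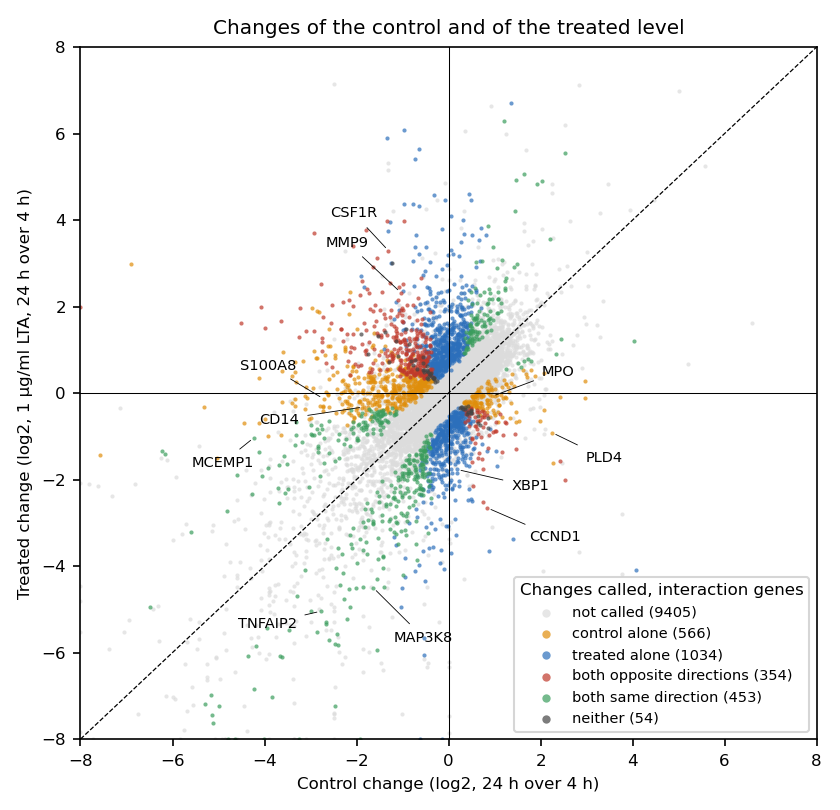
Treated change (vertical) against control change (horizontal) from 4 to 24 h, both as log2 fold change, for the 11866 tested genes, with values past 8 in size drawn at the edge. Colours give the class of the 2461 genes called in the interaction; S100A8 and CD14 moved along the horizontal axis as their control fell, XBP1 along the vertical axis as its treated level fell, and CSF1R moved in opposite directions.

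Of the receptor complex that senses LTA, TLR2 and its partners went separate ways. TLR2 stood at 194 and 201 CPM in untreated cells at 4 h, 1221 and 1191 CPM with LTA at 4 h, 63.8 and 48.4 CPM untreated at 24 h, and 158 and 123 CPM with LTA at 24 h. Treated libraries stood above untreated ones at both times, and both levels were lower at 24 h. The response fell from 2.61 ± 0.16 at 4 h to 1.32 ± 0.16 at 24 h, an interaction of -1.29 ± 0.22 (adjusted p = 0.0012), as the treated level fell by 3.10 ± 0.17 and the control fell by 1.81 ± 0.16. For CD14, the levels were 576 and 434 CPM untreated and 751 and 723 CPM with LTA at 4 h, against 145 and 136 CPM untreated and 564 and 615 CPM with LTA at 24 h. Only the 2 untreated libraries at 24 h stood apart on the low side. The response of CD14 was 0.55 ± 0.15 at 4 h and 2.07 ± 0.16 at 24 h (interaction 1.52 ± 0.22, adjusted p = 0.00028), with a control change of -1.84 ± 0.16 and a treated change of -0.32 ± 0.15 that was not called (adjusted p = 0.095). Without untreated replicate 2 at 4 h its early response was not called (0.36, adjusted p = 0.094), without treated replicate 1 at 4 h (0.52, adjusted p = 0.05), or with library totals alone (0.28, adjusted p = 0.088).

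TLR6, a partner of TLR2, stood at 31.0 and 42.2 CPM untreated and 18.2 and 24.7 CPM with LTA at 4 h, and at 13.9 and 12 CPM untreated and 34.1 and 28.6 CPM with LTA at 24 h. The treated libraries lay below the untreated ones at 4 h and above them at 24 h. Its interaction was 2.03 ± 0.28 (adjusted p = 0.00023), and that of TLR1, the other partner, 1.52 ± 0.28 (adjusted p = 0.0017). The control of TLR6 fell by 1.5 ± 0.20 and that of TLR1 fell by 0.98 ± 0.20, while the treated level of each rose by 0.54, a call lost without treated replicate 1 at 4 h (TLR6 0.32, adjusted p = 0.29; TLR1 0.36, adjusted p = 0.23) or at 24 h (0.41 and 0.36, adjusted p = 0.21 and 0.24), and under DESeq2 (0.48 for both, adjusted p = 0.065 and 0.055). The early fall of TLR6, -0.76 ± 0.20, was not called without untreated replicate 2 (-0.52, adjusted p = 0.086) or treated replicate 1 at 4 h (-0.57, adjusted p = 0.076). MYD88 had 1.32 ± 0.15 at 4 h and 0.91 ± 0.15 at 24 h, and its interaction of -0.41 ± 0.20 was not called (adjusted p = 0.18).

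The 20 tested genes of Toll-like receptor signalling had 7 with a higher and 5 with a lower interaction, and a median of -0.11 that was 0.15 with library totals alone, where 1 was lower. For comparison with this list and those below, 13.3% of all tested genes had a higher and 7.41% a lower interaction. TLR8, a sensor of RNA, had an interaction of 1.78 ± 0.32 (adjusted p = 0.0014). SIGIRR, an inhibitor of Toll-like and interleukin-1 receptors, was higher by 1.66 ± 0.30 (adjusted p = 0.0014), with a control change of 0.07 ± 0.20 that was not called and a treated change of 1.74 ± 0.22. LY96, the MD-2 partner of TLR4, was higher by 2.55 ± 0.58 (adjusted p = 0.0065), at levels under 3 CPM. On the lower side were TLR2, IRAK2, a kinase below MYD88 (-1.48 ± 0.48, adjusted p = 0.044), the adaptor TICAM1, TAB2 and TRAF6. With library totals alone none of these last 4 was called (adjusted p = 0.056 for IRAK2, 0.07 for TICAM1, 0.077 for TAB2 and 0.18 for TRAF6). The lower count was 1 without untreated replicate 2 at 4 h, treated replicate 1 at 4 h, untreated replicate 1 at 24 h or treated replicate 2 at 24 h, and 3 without untreated replicate 2 at 24 h.

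NF-κB subunits, inhibitors and early targets had lost much of their response by 24 h, as both levels fell and the treated level fell further. Of 24 genes, 24 were higher with LTA at 4 h and 17 at 24 h, with medians of 2.29 and 0.89. The control fell for 19 (23.1% of all tested genes fell in the control) and the treated level fell for all 24 (23.3% of all tested), with medians of -1.66 and -2.59. The interaction was lower for 12 of 24 and higher for 0, with a median of -0.87, and 7 were lower without untreated replicate 2 at 4 h or without treated replicate 2 at 24 h. In 10 of the 12 both levels fell, and in the other two the treated level alone was called.

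MAP3K8, the TPL2 kinase that feeds the ERK pathway, stood at 66.4 and 43.6 CPM untreated and 641 and 431 CPM with LTA at 4 h, and at 19.2 and 16 CPM untreated and 23.8 and 23.5 CPM with LTA at 24 h. At 24 h all libraries lay below the lowest of 4 h, and the treated libraries were just above the untreated ones. The response was 3.29 ± 0.23 at 4 h and 0.42 ± 0.23 at 24 h, where it was not called (adjusted p = 0.22), for an interaction of -2.86 ± 0.32 (adjusted p = 5e-05). TNFAIP2, a TNF-induced gene, went from 11921 and 8835 CPM with LTA at 4 h to 386 and 244 CPM at 24 h, and from 1727 and 1373 CPM to 218 and 236 CPM untreated. Its interaction was -2.27 ± 0.34 (adjusted p = 0.00041). The subunit gene NFKB1 had an interaction of -1.75 ± 0.18 (adjusted p = 3.4e-05). REL, whose exons share 43.3% of their bases with another gene on the same strand and whose value is therefore uncertain, had -1.96 ± 0.36 (adjusted p = 0.0019). NFKBIA, which encodes the inhibitor IκBα, had a response of 2.64 ± 0.28 at 4 h and 2.31 ± 0.28 at 24 h, and its interaction of -0.34 ± 0.38 was not called (adjusted p = 0.58).

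**Figure D3:**
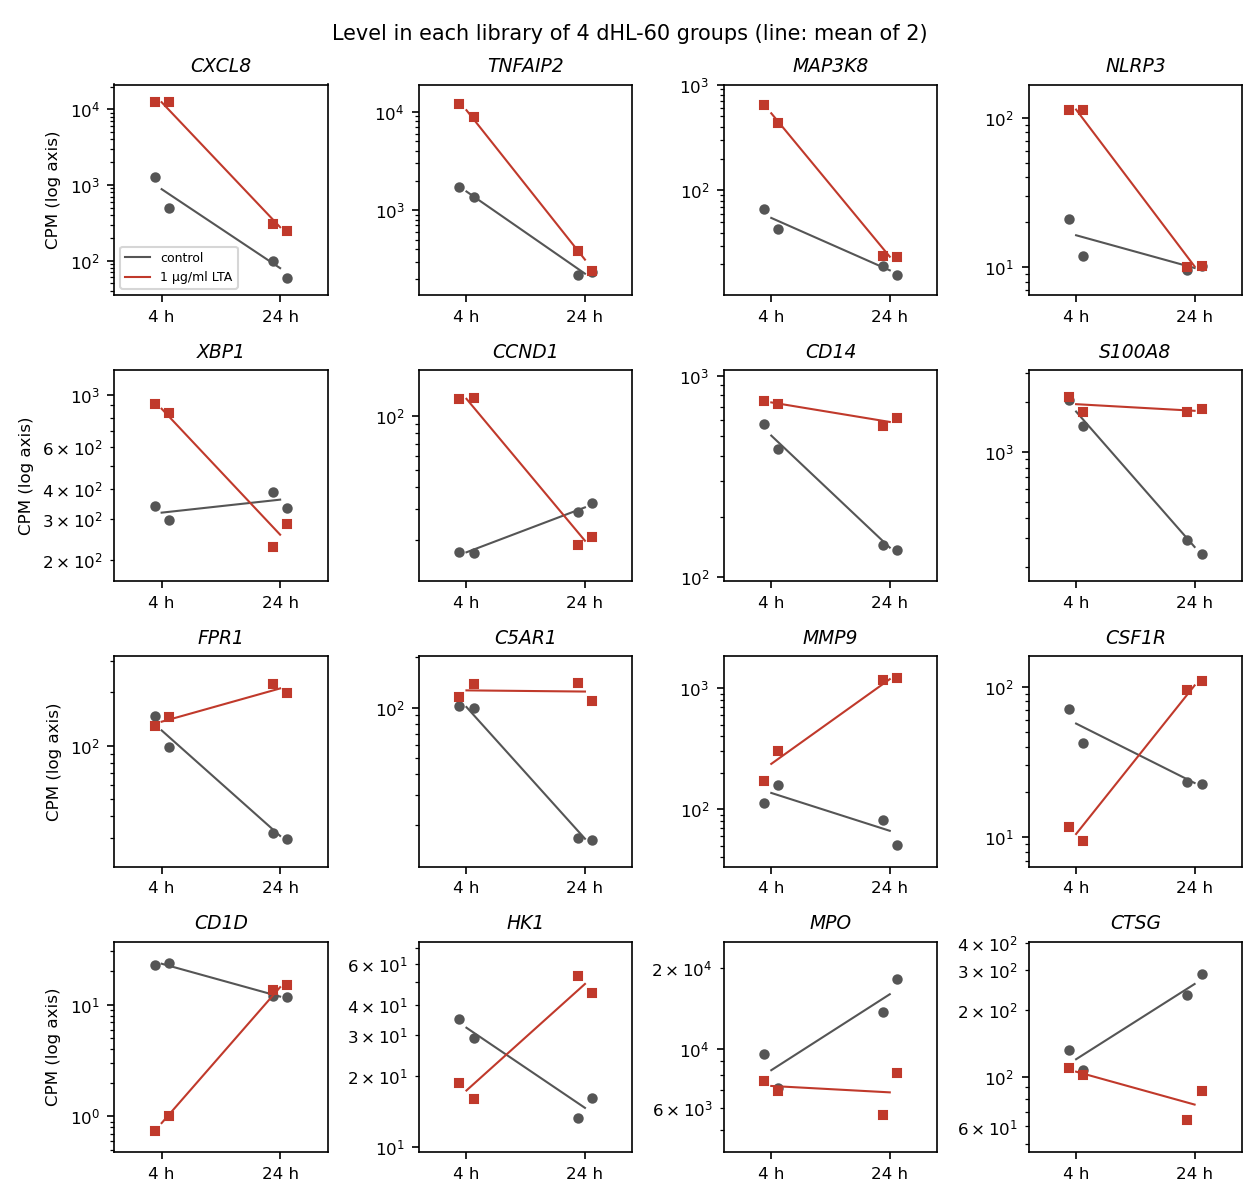
CPM of 16 genes (log axis) in each library of the 4 groups at 4 and 24 h, untreated in grey and with 1 µg/ml LTA in red, with lines joining the means of 2 libraries. The lines of CXCL8, TNFAIP2 and MAP3K8 lie closer at 24 h than at 4 h, with CXCL8 still clearly higher with LTA. Those of CD14, S100A8 and C5AR1 part as the control falls, and those of CCND1, CSF1R and HK1 cross.

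Cytokine genes fell with time in both conditions. Of 24 tested, 19 were higher and 1 lower with LTA at 4 h, and 5 were higher at 24 h (8 with no filter on low counts). The treated level fell for 21 and the control for 14, with medians of -4.29 and -2.47, and the interaction was lower for 11 and higher for 1, with a median of -1.96. Without untreated replicate 1 at 24 h 5 were lower. IL1B, which encodes interleukin-1β, stood at 255 and 108 CPM untreated and 6494 and 5994 CPM with LTA at 4 h, and at 16.5 and 11.8 CPM untreated and 105 and 79.5 CPM with LTA at 24 h. Treated libraries exceeded untreated ones at both times, with a response of 5.11 ± 0.35 at 4 h and 2.70 ± 0.33 at 24 h (interaction -2.41 ± 0.44, adjusted p = 0.0016). TNF had 2.43 ± 0.27 and 0.83 ± 0.27, an interaction of -1.60 ± 0.38 (adjusted p = 0.0086), and its response at 24 h was not called without any one of the 4 libraries at 24 h (0.76 to 0.91, adjusted p = 0.12 to 0.19).

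IL12B, the p40 subunit of interleukins 12 and 23, left almost no counts at 24 h. IL12B stood at 2.04 and 1.93 CPM untreated and 180 and 146 CPM with LTA at 4 h, and at 0.106 and 0 CPM untreated and 0 and 0.0656 CPM with LTA at 24 h. The treated level was 4590-fold lower at 24 h (95% counting interval 823 to 181367), on 3347 counts against 1, and the control 32.1-fold lower (8.36 to 273.6), on 43 counts against 2. Its interaction was called (adjusted p = 0.012), but not without untreated replicate 1 at 24 h (adjusted p = 0.96). INHBA, an activin subunit, fell 432-fold in treated cells (77 to 17118) on 315 counts against 1, with 3 and 4 counts in the control at 4 and 24 h. IL23A, the p19 subunit of interleukin 23, had an interaction of -3.84 ± 0.77 (adjusted p = 0.0031), which was -3.20 without untreated replicate 1 at 24 h (adjusted p = 0.083). IL16, a chemoattractant cytokine of lymphocytes, was the member with a higher interaction (1.3 ± 0.18, adjusted p = 0.00024), and its value is uncertain because 36.6% of its exon bases face another gene on the opposite strand.

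Most chemokines still had a called response at 24 h. All 19 tested were higher with LTA at 4 h and 15 at 24 h, with medians of 3.82 and 3.08. The control fell for 15 and the treated level for 17. The interaction was lower for 4 and higher for 1, with a median of -0.89, against 7.41% and 13.3% of all tested genes. The lower count was 1 without either untreated library at 24 h. It was 2 without either treated library at 4 h or treated replicate 2 at 24 h. CCL20, which attracts CCR6-bearing cells, stood at 6.43 and 3.53 CPM untreated and 436 and 498 CPM with LTA at 4 h, and at 0.106 and 0.294 CPM untreated and 0.734 and 0.393 CPM with LTA at 24 h. Its interaction was -5.04 ± 1.32 (adjusted p = 0.015), and -4.30 without untreated replicate 2 at 24 h (adjusted p = 0.19). CXCL8, the neutrophil attractant interleukin-8, went from 12520 and 12309 CPM with LTA at 4 h to 306 and 248 CPM at 24 h, and from 1263 and 498 CPM to 99.8 and 59.4 CPM untreated. Its response was 3.82 ± 0.37 at 4 h and 1.79 ± 0.35 at 24 h (interaction -2.02 ± 0.48, adjusted p = 0.0086), and the interaction was -1.60 without untreated replicate 1 at 24 h (adjusted p = 0.055).

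CCL2 and CCL5 fell in both conditions by amounts that did not differ detectably. CCL2, an attractant of monocytes, had a response of 3.03 ± 0.25 at 4 h and 2.92 ± 0.25 at 24 h, and CCL5 had 3.70 ± 0.16 and 3.52 ± 0.16. Their interactions were -0.11 ± 0.33 (adjusted p = 0.85) and -0.19 ± 0.22 (adjusted p = 0.59). CCL5 stood at 35.1 and 34.1 CPM untreated and 489 and 414 CPM with LTA at 4 h, and at 12.7 and 11.9 CPM untreated and 129 and 152 CPM with LTA at 24 h. CXCL16, a membrane-bound chemokine, was the member whose response grew, from 2.02 ± 0.16 to 3.54 ± 0.20 (interaction 1.52 ± 0.26, adjusted p = 0.0012), as its control fell by 3.72 ± 0.21 and its treated level fell by 2.20 ± 0.16.

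Immediate early genes and AP-1 regulators, 35 tested, fell almost throughout: 29 in the control and 32 in treated cells. Their interaction was lower for 7 and higher for 3, with a median of -0.92. Without untreated replicate 1 at 4 h 17 were lower, and without untreated replicate 1 at 24 h 4 were. The lower count was 11 with DESeq2 and 15 with no filter on low counts, and 5 were higher with library totals alone. DUSP5, a phosphatase of ERK, went from 59.6 and 66.9 CPM with LTA at 4 h to 5.80 and 4.79 CPM at 24 h, close to its untreated levels of 4.70 and 6.05 CPM at 4 h and 4.05 and 4.04 CPM at 24 h. The interaction was -3.16 ± 0.28 (adjusted p = 1.3e-05), and the control change of -0.42 ± 0.21 was not called (adjusted p = 0.13). NR4A1, an orphan nuclear receptor, had -3.42 ± 0.89 (adjusted p = 0.015), and -3.34 without untreated replicate 1 at 24 h (adjusted p = 0.096). KLF4, a transcription factor of monocyte differentiation, went the other way (2.71 ± 0.40, adjusted p = 0.00036). Its control fell by 1.80 ± 0.30 and its treated level rose by 0.91 ± 0.26, a rise not called without treated replicate 2 at 4 h (0.75, adjusted p = 0.094) or treated replicate 1 at 24 h (0.54, adjusted p = 0.16).

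Called genes that answer unfolded proteins or amino acid shortage mostly had a lower interaction. Of 25 tested, 10 had a lower and 1 a higher interaction, with a median of -0.58. The control fell for 9 and rose for 3 (median -0.02), with 5 falling without untreated replicate 1 at 24 h, and the treated level fell for 16 and rose for 3 (median -0.68). With library totals alone 6 had a lower and 2 a higher interaction, with a median of -0.32, and the treated level fell for 10, with a median of -0.33, and the control rose for 5, with a median of 0.07. Without treated replicate 1 at 24 h 5 were lower. XBP1, the transcription factor that drives chaperone and secretory genes, stood at 339 and 296 CPM untreated and 910 and 834 CPM with LTA at 4 h, and at 388 and 333 CPM untreated and 228 and 285 CPM with LTA at 24 h. Treated libraries lay above the untreated ones at 4 h and below them at 24 h. The interaction was -1.95 ± 0.21 (adjusted p = 3.4e-05), with a control change of 0.18 ± 0.14 (adjusted p = 0.33) and a treated change of -1.77 ± 0.15. Its lower level at 24 h, -0.49 ± 0.14, was not called without untreated replicate 1 (-0.38, adjusted p = 0.2) or treated replicate 1 at 24 h (-0.34, adjusted p = 0.28). The chaperone HSPA5 had -0.88 ± 0.19 (adjusted p = 0.0044), and PPP1R15A, which restores translation under stress, -1.86 ± 0.31 (adjusted p = 0.00079).

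Apoptosis and survival genes, 29 tested, had 10 with a lower and 1 with a higher interaction, with a median of -0.40. With library totals alone 8 were lower and 5 higher, and the 1 higher call was lost with DESeq2, in the fit over 8 libraries, without untreated replicate 1 at either time, and without either treated replicate at 24 h. The lower ones held both sides of the balance. PMAIP1 (NOXA), which promotes death, had -1.97 ± 0.43 (adjusted p = 0.0054), and BID, which links death receptors to mitochondria, -1.72 ± 0.27 (adjusted p = 0.0006). The survival genes BCL2L1 and MCL1 had -1.86 ± 0.30 (adjusted p = 0.0007) and -0.98 ± 0.18 (adjusted p = 0.0019). BCL2L1 is uncertain because 43% of its exon bases face an antisense gene. BID stood at 92.2 and 60.2 CPM untreated and 321 and 240 CPM with LTA at 4 h, and at 64.4 and 66.6 CPM untreated and 76.8 and 69.7 CPM with LTA at 24 h, so that only the treated libraries at 4 h stood apart.

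NLRP3 and NLRC4, sensors of 2 different inflammasomes, moved in opposite directions. NLRP3 stood at 20.9 and 11.8 CPM untreated and 114 and 114 CPM with LTA at 4 h, and at 9.58 and 10.2 CPM untreated and 10.1 and 10.2 CPM with LTA at 24 h. Its response was 2.80 ± 0.22 at 4 h and 0.04 ± 0.23 at 24 h (interaction -2.76 ± 0.31, adjusted p = 5.3e-05). NLRC4, a sensor that works with NAIP, stood at 30.5 and 28.7 CPM untreated and 17.7 and 17.3 CPM with LTA at 4 h, and at 14.8 and 14.2 CPM untreated and 50.7 and 38.9 CPM with LTA at 24 h. The order of treated and untreated libraries turned round between the times. The interaction was 2.39 ± 0.23 (adjusted p = 2e-05), with a control change of -1.03 ± 0.17 and a treated change of 1.36 ± 0.16. NAIP, uncertain because of its near-identical copies, had 2.16 ± 0.38 (adjusted p = 0.0014). Of the 13 genes of the inflammasome list 4 were higher and 2 lower in the interaction, and 1 was lower with library totals alone or without untreated replicate 2 or treated replicate 2 at 24 h.

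Most genes of the mature neutrophil fell in untreated cells between 4 and 24 h. Of 26 tested, 13 had a higher interaction and 0 a lower one, with a median of 1.09. The control fell for 22 and rose for 0, with a median of -1.28. The treated level rose for 5 and fell for 9 (25.5% of all tested genes rose), and its median was -0.04. With library totals alone it rose for 11 and fell for 7, with a median of 0.31, and the control fell for 20. In 7 of the 13 the control alone was called, in 5 both levels moved in opposite directions and in 1 in the same direction.

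S100A8, a subunit of calprotectin, stood at 2063 and 1440 CPM untreated and 2146 and 1736 CPM with LTA at 4 h, and at 292 and 241 CPM untreated and 1731 and 1810 CPM with LTA at 24 h. The groups overlapped at 4 h, and at 24 h the untreated libraries lay far below the treated ones. The response was 0.15 ± 0.18 at 4 h (adjusted p = 0.54) and 2.73 ± 0.19 at 24 h (interaction 2.58 ± 0.26, adjusted p = 2.3e-05). Its partner S100A9 had a control change of -2.26 ± 0.19, a treated change of 0.05 ± 0.18 and an interaction of 2.31 ± 0.26 (adjusted p = 5e-05). ITGAM, the αM subunit of the integrin Mac-1, stood at 127 and 121 CPM untreated and 96.5 and 99.7 CPM with LTA at 4 h, and at 64.2 and 65.6 CPM untreated and 209 and 188 CPM with LTA at 24 h. The interaction was 1.95 ± 0.17 (adjusted p = 1.4e-05), with a control that fell by 0.93 ± 0.12 and a treated level that rose by 1.02 ± 0.12. MMP9, the gelatinase of neutrophils, rose in treated cells from 172 and 301 CPM to 1162 and 1209 CPM, against 113 and 159 CPM and 81.4 and 51.0 CPM untreated. Its interaction was 3.36 ± 0.42 (adjusted p = 0.00011), with a treated change of 2.32 ± 0.30 and a control change of -1.04 ± 0.29 that was not called without untreated replicate 2 at 4 h (-0.77, adjusted p = 0.088) or at 24 h (-0.73, adjusted p = 0.12). SELPLG, the ligand of selectins, was lowered by LTA at 4 h (86.6 and 89.3 CPM against 355 and 289) and stood at 310 and 333 CPM with LTA at 24 h against 215 and 276. Its interaction was 2.26 ± 0.21 (adjusted p = 1.5e-05).

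Chemoattractant receptors, 15 tested, had 9 with a higher interaction and 0 with a lower one, with a median of 2.18. The control fell for 14, with a median of -1.77, while the treated level rose for 5 and fell for 5, with a median of -0.03 (0.32 with library totals alone). Without treated replicate 1 at 4 h or at 24 h the treated level rose for 3. C5AR1, the receptor of the complement fragment C5a, stood at 102 and 100 CPM untreated and 115 and 139 CPM with LTA at 4 h, and at 16.7 and 16.2 CPM untreated and 141 and 109 CPM with LTA at 24 h. Untreated libraries at 24 h alone stood apart, with a control change of -2.62 ± 0.18, a treated change of -0.03 ± 0.16 and an interaction of 2.59 ± 0.24 (adjusted p = 1.4e-05). FPR1, the receptor of formyl peptides, stood at 146 and 97.7 CPM untreated and 129 and 144 CPM with LTA at 4 h, and at 32.1 and 29.9 CPM untreated and 223 and 198 CPM with LTA at 24 h. Its interaction was 2.59 ± 0.26 (adjusted p = 2.2e-05). The treated change of FPR1, 0.62 ± 0.18, was not called without treated replicate 1 at 4 h (0.52, adjusted p = 0.083) or at 24 h (0.54, adjusted p = 0.073).

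A second kind of receptor in this list was first lowered by LTA. CCR2, the receptor of CCL2 on monocytes, stood at 16.6 and 21.8 CPM untreated and 1.23 and 4.80 CPM with LTA at 4 h, and at 2.40 and 3.45 CPM untreated and 10.6 and 11.5 CPM with LTA at 24 h. The order of the groups turned round, with a response of -2.57 ± 0.36 at 4 h and 1.93 ± 0.35 at 24 h (interaction 4.50 ± 0.51, adjusted p = 5.1e-05). CXCR2, a receptor of CXCL8, went from -2.50 ± 0.23 at 4 h to -0.13 ± 0.20 at 24 h (interaction 2.36 ± 0.31, adjusted p = 0.00015). CCR3, a receptor best known from eosinophils, went from -3.20 ± 0.27 to -0.29 ± 0.24 (interaction 2.91 ± 0.36, adjusted p = 0.00011).

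Interferon-stimulated genes, 23 tested, had 8 with a higher interaction and 0 with a lower one, with a median of 0.75. Their control fell for 15 with a median of -1.17. Treated levels rose for 4 and fell for 6, with a median of -0.13 (0.22 with library totals alone). MX2, an inhibitor of viruses, stood at 10.1 and 12.9 CPM untreated and 3.56 and 6.66 CPM with LTA at 4 h, and at 4.42 and 3.82 CPM untreated and 14 and 12.1 CPM with LTA at 24 h. Treated libraries went from below to above the untreated ones (interaction 2.78 ± 0.37, adjusted p = 0.0002). PARP9 had 2.39 ± 0.25 (adjusted p = 3.3e-05) and OAS3, which makes the activator of RNase L, 1.70 ± 0.40 (adjusted p = 0.0084). IFNB1, the gene of interferon-β, had at most 1 count in any of the 8 libraries.

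Promyelocyte genes ran against the neutrophil genes. Of 26 tested, 11 had a lower interaction and 0 a higher one, with a median of -0.87. The control rose for 7 (17.8% of all tested genes rose) and fell for 2, while the treated level fell for 11 and rose for 5, with a median of -0.20. With library totals alone it fell for 6 and rose for 8, with a median of 0.14, and 8 had a lower interaction. At 24 h 19 of the 26 were lower with LTA and 1 higher, against 5 and 4 at 4 h. Without untreated replicate 2 or treated replicate 1 at 24 h 7 had a lower interaction. Without the same treated replicate the treated level fell for 5, and without treated replicate 1 or 2 at 4 h or replicate 2 at 24 h it rose for 1 or 2.

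Cathepsin G (CTSG), a primary granule protease, stood at 132 and 108 CPM untreated and 110 and 102 CPM with LTA at 4 h, and at 234 and 288 CPM untreated and 64.3 and 86.1 CPM with LTA at 24 h. The response was -0.19 ± 0.17 at 4 h (adjusted p = 0.41) and -1.79 ± 0.17 at 24 h (interaction -1.61 ± 0.24, adjusted p = 0.00038), as the control rose by 1.12 ± 0.17. The treated change, -0.49 ± 0.17, was not called without treated replicate 1 at 24 h (-0.29, adjusted p = 0.26) or either treated library at 4 h (-0.46 and -0.54, adjusted p = 0.1 and 0.054). With library totals alone the treated change of CTSG was -0.14 and also not called (adjusted p = 0.46). ELANE, neutrophil elastase, had an interaction of -1.60 ± 0.40 (adjusted p = 0.012). MPO, myeloperoxidase, stood at 9510 and 7117 CPM untreated and 7559 and 6969 CPM with LTA at 4 h, and at 13738 and 18122 CPM untreated and 5666 and 8087 CPM with LTA at 24 h. Untreated libraries at 24 h stood above the other 6. The interaction of MPO, -1.02 ± 0.31 (adjusted p = 0.031), was not called with library totals alone (-0.77, adjusted p = 0.053) or without any one of 5 libraries (-0.79 to -1.08, adjusted p = 0.053 to 0.13), untreated replicate 2 and both treated replicates at 4 h, and untreated replicate 2 and treated replicate 1 at 24 h. SRGN, the proteoglycan that packs granule proteins, rose in the control by 1.04 ± 0.23 and fell in treated cells by 0.89 ± 0.23, with an interaction of -1.92 ± 0.32 (adjusted p = 0.00097). Its treated change was not called without treated replicate 1 at 24 h (-0.61, adjusted p = 0.08) or with library totals alone (-0.54, adjusted p = 0.059).

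Called genes of glucose metabolism and hypoxia mostly had a higher interaction. Of 28 tested, 12 had a higher and 2 a lower interaction, with a median of 0.61, and the higher count was 19 with library totals alone and 9 in the fit over 8 libraries. The treated level rose for 19 and fell for 5, with a median of 0.94, and the control rose for 11 and fell for 7, with a median of 0.07. The control rose for 7 without untreated replicate 2 at 4 h or untreated replicate 1 at 24 h. LDHA, lactate dehydrogenase A, stood at 369 and 305 CPM untreated and 257 and 236 CPM with LTA at 4 h, and at 873 and 705 CPM untreated and 1192 and 1476 CPM with LTA at 24 h. Treated libraries lay below the untreated ones at 4 h and above them at 24 h. Both levels were higher at 24 h (interaction 1.21 ± 0.22, adjusted p = 0.0019). The response of LDHA at 4 h was not called in the fit over 8 libraries (-0.42, adjusted p = 0.076). It was -0.30 without untreated replicate 1 at 4 h, and -0.51 and -0.39 without treated replicate 1 or 2 at 4 h. The response at 24 h was 0.61 without untreated replicate 2 at 24 h.

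HK1, a hexokinase, stood at 35.0 and 29.2 CPM untreated and 18.8 and 16 CPM with LTA at 4 h, and at 13.2 and 16.1 CPM untreated and 53.4 and 45.1 CPM with LTA at 24 h. The lines of the 2 conditions crossed, with a response of -0.89 ± 0.18 at 4 h and 1.75 ± 0.18 at 24 h (interaction 2.64 ± 0.26, adjusted p = 2e-05). ENO2, an enolase, rose from 1.96 and 3.80 CPM to 18.3 and 30.9 CPM in treated cells (interaction 3.43 ± 0.61, adjusted p = 0.0015), and PFKFB4, a regulator of glycolysis, from 1.96 and 2.40 CPM to 27.3 and 37.0 CPM (3 ± 0.40, adjusted p = 0.00018). HIF1A, the transcription factor of hypoxia, and PFKFB3 were the lower ones, at -1.48 ± 0.30 (adjusted p = 0.0033) and -1.41 ± 0.23 (adjusted p = 0.00084). HIF1A stood at 149 and 176 CPM with LTA at 4 h and at 50 and 38.6 CPM with LTA at 24 h, against 31.1 and 39.7 CPM and 29.2 and 24.2 CPM untreated.

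Ribosome biogenesis genes rose with time in both conditions, with few calls in the interaction. Of 28 tested, 24 rose in the control and 24 in treated cells, each with a median of 0.79. With library totals alone the medians were 0.88 (control) and 1.14 (treated). LTA lowered 10 and raised 0 at 4 h, and lowered 7 and raised 0 at 24 h. Over all tested genes 20.1% and 7.26% were lower at these times. With library totals alone 22 and 10 of the list were lower. In the interaction 1 was higher and 1 lower (2 and 0 with library totals alone). NCL, the gene of nucleolin, rose by 1.04 ± 0.14 in the control and by 0.89 ± 0.14 with LTA (interaction -0.15 ± 0.19, adjusted p = 0.64). The higher one was MYC, a driver of this programme, at 1183 and 1075 CPM untreated and 325 and 397 CPM with LTA at 4 h, and at 1862 and 2372 CPM untreated and 1086 and 1322 CPM with LTA at 24 h. MYC was lower with LTA at both times and higher at 24 h in both conditions, and its interaction of 0.83 ± 0.24 (adjusted p = 0.024) was not called without untreated replicate 1 at 4 h or 24 h, treated replicate 1 at 4 h or treated replicate 2 at 24 h (0.67 to 0.76, adjusted p = 0.055 to 0.11), or in a fit over the 8 libraries alone (0.75, adjusted p = 0.064).

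Cell cycle genes had 11 with a higher and 1 with a lower interaction of 38 tested, against 13.3% and 7.41% of all tested genes. The lower count was 0 with upper-quartile scaling, with library totals alone, with no filter on low counts, and without any one of 7 libraries, all but untreated replicate 1 at 24 h. The higher count was 5 in the fit over 8 libraries and 3 without untreated replicate 1 at 24 h. The same count was 4 without treated replicate 1 at 4 h or at 24 h, 6 without treated replicate 2 at 24 h, and 7 without untreated replicate 1 or treated replicate 2 at 4 h. AURKB, a mitotic kinase, stood at 28.1 and 25.0 CPM untreated and 23.9 and 19.6 CPM with LTA at 4 h, and at 10.3 and 12.4 CPM untreated and 19.9 and 20.8 CPM with LTA at 24 h. Untreated libraries at 24 h were the low ones (interaction 1.14 ± 0.25, adjusted p = 0.0059). Thymidine kinase TK1 had 1.09 ± 0.22 (adjusted p = 0.0031).

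The next lists are set against 13.3% of all tested genes with a higher and 7.41% with a lower interaction, 20.7% in either direction. Antigen presentation and costimulation (21.7% called) and LXR targets (18.2% called) lay near that last share. Antigen presentation and costimulation, 23 tested, had 4 higher and 1 lower (3 lower without untreated replicate 1 at 4 h). CD86, a ligand of CD28, was higher by 1.5 ± 0.16 (adjusted p = 3.8e-05). CD83, a marker of activated dendritic cells, was lower (-3.01 ± 0.50, adjusted p = 0.00084). Matrix proteases and the plasminogen system, 19 tested, had 4 higher and 3 lower (5 lower without untreated replicate 1 at 4 h). TIMP2, an inhibitor of matrix proteases, was higher by 2.33 ± 0.21 (adjusted p = 1.4e-05), and SERPINB2, an inhibitor of urokinase whose exons share 19.9% of their bases with SERPINB10 on the same strand, had -2.61 ± 0.25 (adjusted p = 1.6e-05). Antioxidant and iron genes, 23 tested, had 3 higher and 4 lower, with 1 higher without untreated replicate 1 at 24 h, 7 higher with library totals alone and 6 with no filter on low counts. Among them SLC39A8, a zinc importer, was lower (-2.26 ± 0.24, adjusted p = 3.4e-05). Sterol synthesis, 25 tested, had 0 higher (3 with library totals alone) and 2 lower, STARD4 (-2.25 ± 0.38, adjusted p = 0.001) and INSIG1 (-1.77 ± 0.35, adjusted p = 0.003). LXR targets, 11 tested, had 2 higher, the cholesterol exporter ABCG1 and NR1H3, and the count was 0 with DESeq2, with the stricter filter or without treated replicate 2 at 24 h, and 1 in the fit over 8 libraries or without untreated replicate 1 or treated replicate 1 at 24 h or either treated library at 4 h. The NADPH oxidase, 8 tested, had 2 higher (1 in the fit over 8 libraries) and 0 lower. The call of the subunit gene NCF4 (0.74 ± 0.23, adjusted p = 0.037) was lost (adjusted p = 0.065 to 0.13) without any one of 6 libraries, namely all 4 at 24 h, untreated replicate 1 at 4 h and treated replicate 2 at 4 h. Of 26 reference genes 2 were higher (4 with library totals alone) and 1 lower.

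**Figure D4:**
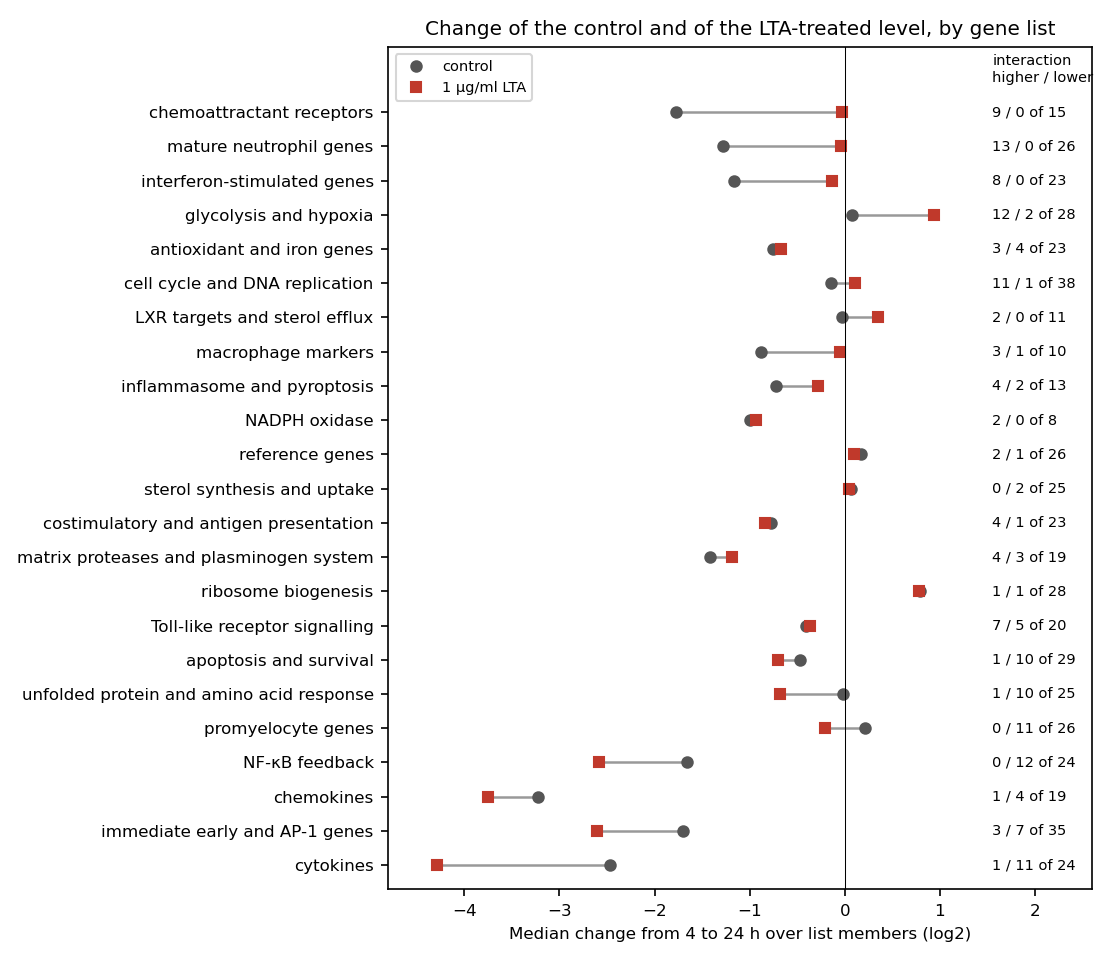
Median change from 4 to 24 h (log2) of the members of 23 gene lists, in untreated cells (grey circles) and with 1 µg/ml LTA (red squares), with the members higher and lower in the interaction given at the right, of those tested. The red square lies right of the grey circle for chemoattractant receptors and mature neutrophil genes and left of it for NF-κB feedback and cytokines, and both lie together at 0.79 for ribosome biogenesis.

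Outside the lists, the highest interactions belonged to genes of low level. GPRIN3 stood at 0.817 and 1.60 CPM untreated and 0.613 and 0.542 CPM with LTA at 4 h, and at 0.160 and 0.147 CPM untreated and 7.78 and 7.34 CPM with LTA at 24 h, an interaction of 6.62 ± 0.73 (adjusted p = 4.5e-05). Treated libraries at 24 h were far above the other 6. KIFC3, a kinesin, went from 24.7 and 22.1 CPM to 7.78 and 9.83 CPM with LTA while its control went from 19.4 and 17.4 CPM to 0.319 and 0.147 CPM (4.77 ± 0.61, adjusted p = 0.00015). The extracellular matrix gene OLFML2B (5.15 ± 0.67) and the myelin gene PMP22 (4.97 ± 0.58) rose in treated cells alone (adjusted p = 0.00015 and 6.8e-05), as did the inhibitory Fc receptor gene FCGR2B. The last of these is uncertain because of near-identical copies, and its interaction was not called without untreated replicate 2 at 4 h (3.42, adjusted p = 0.22). MCEMP1, a membrane protein of myeloid cells, stood at 49.3 and 45.4 CPM untreated and 41.8 and 44.3 CPM with LTA at 4 h, and at 2.82 and 2.13 CPM untreated and 26 and 16.2 CPM with LTA at 24 h (3.20 ± 0.32, adjusted p = 2.3e-05). Both levels fell, the control further.

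CD1D and CSF1R, at higher counts, were both lowered by LTA at 4 h. CD1D stood at 22.9 and 23.7 CPM untreated and 0.736 and 1.01 CPM with LTA at 4 h, and at 12 and 11.7 CPM untreated and 13.6 and 15.1 CPM with LTA at 24 h. The 2 libraries with LTA at 4 h stood far below the other 6. The response was -4.68 ± 0.24 at 4 h, and at 24 h the response of 0.28 ± 0.17 was not called (adjusted p = 0.27), for an interaction of 4.96 ± 0.30 (adjusted p = 9.9e-07). CSF1R stood at 71.3 and 42.5 CPM untreated and 11.7 and 9.38 CPM with LTA at 4 h, and at 23.3 and 22.6 CPM untreated and 95.1 and 109 CPM with LTA at 24 h. Its response turned from -2.45 ± 0.23 to 2.15 ± 0.21 (interaction 4.60 ± 0.31, adjusted p = 1.5e-06), as the control fell by 1.31 ± 0.21 and the treated level rose by 3.29 ± 0.23.

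On the lower side a rise of the control set some genes apart. PLD4, an endolysosomal nuclease of myeloid cells, stood at 1.74 and 1.09 CPM untreated and 1.10 and 1.24 CPM with LTA at 4 h, and at 6.71 and 6.61 CPM untreated and 0.587 and 0.656 CPM with LTA at 24 h (interaction -3.16 ± 0.51, adjusted p = 0.0007). SDK2, a cell adhesion gene, went from 5.51 and 3.53 CPM to 16.3 and 21.3 CPM in the control, with no called treated change (-0.39 ± 0.36, adjusted p = 0.4). In both, the untreated libraries at 24 h stood above the other 6. NMNAT3, which makes NAD in mitochondria, had an interaction of -3.99 ± 0.36 (adjusted p = 1.4e-05), with a control that rose by 2.42 ± 0.28 and a treated level that fell by 1.58 ± 0.22.

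Genes called in opposite directions at the 2 times were a smaller set. From lower at 4 h to higher at 24 h went 262 genes, 141 without untreated replicate 1, 170 without untreated replicate 2, 145 without treated replicate 1 and 172 without treated replicate 2 at 24 h. From higher to lower went 49, and 25, 30, 10 and 26 without the same libraries in that order, with 28 under library totals alone. CCND1 stood at 17.3 and 17.0 CPM untreated and 124 and 126 CPM with LTA at 4 h, and at 28.8 and 32.5 CPM untreated and 18.8 and 21.0 CPM with LTA at 24 h. The response turned from 2.87 ± 0.15 to -0.62 ± 0.15 (interaction -3.49 ± 0.21, adjusted p = 9.9e-07). Its lower level at 24 h was not called without untreated replicate 2 (-0.54, adjusted p = 0.065) or treated replicate 1 at 24 h (-0.54, adjusted p = 0.099). GYPC, glycophorin C, turned from 2.1 ± 0.18 to -0.59 ± 0.18 (interaction -2.69 ± 0.25, adjusted p = 1.5e-05), and the later response was not called without any of 3 libraries at 24 h, untreated replicate 2 and both treated replicates (-0.40 to -0.70, adjusted p = 0.075 to 0.22). Among genes that turned the other way were SECTM1, DAB2, an endocytic adaptor, and VWA1, a matrix protein. DAB2 stood at 1.74 and 5.71 CPM untreated and 0.245 and 0.465 CPM with LTA at 4 h, and at 1.70 and 2.20 CPM untreated and 7.92 and 8 CPM with LTA at 24 h (interaction 5.34 ± 0.75, adjusted p = 0.00027).

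Markers of other cell types moved too. LYZ, a macrophage marker, is uncertain because 34% of its exon bases face another gene on the opposite strand. Of 20 macrophage markers 10 passed the filter, 3 with a higher interaction, CSF1R, GPNMB and MERTK, and 1 with a lower one, LYZ. Their summed level ran from 5151 to 5757 CPM untreated and 8904 to 9382 CPM with LTA at 4 h. At 24 h it ran from 4775 to 5710 CPM untreated and 3441 to 3572 CPM with LTA, so the sum moved against CSF1R. A sum is weighted to the most abundant members. By count, 8 of the 10 were higher with LTA at 24 h and 1 lower, with a median response of 2.17. Over all tested genes 13.9% were higher and 7.26% lower at that time. The defining markers MRC1 and MSR1 had at most 1 count in any of the 8 libraries, CD68 at most 7 and CD163 at most 14. Of 14 lymphocyte markers 3 passed, and NKG7, a granule protein of cytotoxic cells, had 2.47 ± 0.27 (adjusted p = 3.7e-05), with 151 and 112 CPM with LTA at 24 h. CD3G and CD79B were at 0 in all 8. Of 13 eosinophil and basophil markers 7 passed, and CCR3 was the one called. The part of such cells in the results above was not tested, and in bulk RNA fewer cells of a type and less RNA per cell cannot be told apart.

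The globin genes stood out for their pattern across groups. HBB, β-globin, stood at 32.0 and 34.4 CPM untreated and 0.491 and 0.155 CPM with LTA at 4 h, and at 0 CPM in both untreated libraries and 1.03 and 1.31 CPM with LTA at 24 h. With 10 µg/ml LTA its mean was 22.1 CPM at 4 h and 0.784 CPM at 24 h. The near-absence at 4 h was thus seen at 1 µg/ml and not at 10 µg/ml, and its cause was not tested. The control was at least 359-fold lower at 24 h, on 722 counts against 0, and the level with LTA at 24 h was at least 12.7-fold higher than the untreated one, on 34 counts against 0 (floor of 3 counts over a group). Of 15 red cell and platelet markers 6 passed the filter, 2 with a higher interaction, HBB and HBA2. HBA2 had 26 counts in untreated cells at 4 h and 0 at 24 h (at least 12.9-fold lower), and its interaction was not called without any one of 6 libraries (adjusted p = 0.057 to 1), namely all but untreated replicate 1 at 4 h and treated replicate 1 at 24 h. Their summed level ran from 37.7 to 41.2 CPM untreated and 10.7 to 12.6 CPM with LTA at 4 h, and from 3.31 to 3.73 CPM untreated and 7.34 to 7.70 CPM with LTA at 24 h, with HBD, HBG1 and HBG2 at 0 in all 8. Their part in other results was not tested.

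At 10 µg/ml, measured against the same untreated libraries, the interaction was called for 4001 genes (33.7%), 2339 higher (19.7%) and 1662 lower (14%). Of the genes called at 1 µg/ml, 1416 of 1582 in the higher and 731 of 879 in the lower direction had the same call at 10 µg/ml and 0 the opposite one. The shared controls bind these counts together, and they are given side by side only. In the difference between the doses the controls cancel, and 22 genes (0.185%) were called, 21 with a higher interaction at 10 µg/ml (0.177%) and 1, HBB, with a lower one (0.00843%). The count at an unadjusted p under 0.05 was 1367. Without treated replicate 2 of the low dose at 24 h 2 genes were called, without treated replicate 1 at 4 h or at 24 h 12, and without either untreated library at 4 h 66. CD14 was among the 22, with an interaction of 2.77 at 10 µg/ml against 1.52, and so were MCEMP1 (5.13 against 3.20), IRAK2 (0.42 against -1.48) and CCL20 (-1.96 against -5.04).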

How the data were processed

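RNA from 12 libraries of differentiated HL-60 cells entered the model, and 8 of them form the comparison described here. The values are counts per gene symbol in a table the authors deposited, and these are not normalized. Per the submitters' processing notes, which give no role or order, fastp 0.20.0, HISAT2 2.1.0, featureCounts 2.0.1 and the GRCh38 build were used, as were DESeq2 1.28.0 and edgeR 3.36.0. Per the labels' protocols the kit was stranded, and no source used here says whether counting used the strand. Genes with large overlaps or near-identical copies are therefore called uncertain where this is said above. Unmarked genes can overlap others too. Examples by share of exon bases facing a gene on the opposite strand are MMP9 (18.4%), CCND1 (10.3%) and NR4A1 (10.3%).

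Counts were tested with edgeR 4.0.16 (R 4.3.3) by TMM scaling, filterByExpr and the quasi-likelihood F test over 6 groups, with 6 residual degrees of freedom and Benjamini-Hochberg adjusted p under 0.05. Standard errors are the log2 fold change over the square root of F. The procedure was run on simulated data in which every gene had the same spread and changes were planted only in well-counted genes. That run does not cover genes at low counts or of unequal spread. Of 23575 symbols, 23283 matched RefSeq.

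Genes were named by a rule. From those called in the interaction with a mean of at least 5 CPM in a group, it took the 10 highest and 10 lowest, 5 per direction with opposite responses, 4 per direction in each class and 3 per list, and always TLR2, TLR1, TLR6, CD14, MYD88, ITGAM and MPO. Other genes given values, such as TNF, IL1B, NFKB1, C5AR1, S100A9, LDHA and ELANE, were chosen after their values were seen. Not every gene that the rule took is described above. Among those with the lowest interactions, HIC1, ELOVL7, RRAD, CFAP46, CTDSPL and CD70 were left out. The comparison and the 26 gene lists were chosen with earlier results of these data known, so they support nothing independently. The labels state no pairing of the replicate numbers, and the main fit used none. Alternatives were upper-quartile scaling, library totals alone, DESeq2 1.42.0, limma-voom (limma 3.58.1), no filter or one of 5 CPM in 2 libraries, the 8 libraries alone, a replicate block, and leaving out each library. Intervals and floors cover counting error only. The 4 undifferentiated libraries were not used.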

Additional observations from a re-analysis of the deposited data

Results flagged for a closer look

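Each result here is a difference between the response at 24 h and the response at 4 h that the interaction tested. It was called for 2461 genes, of which 262 were lower with LTA at 4 h and higher at 24 h, and 49 were higher at 4 h and lower at 24 h. At the 2 doses the 24 h minus 4 h difference was unequal for 22 genes.

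Genes whose response turned from lower to higher had the largest interactions in SECTM1 (6.28), VWA1 (5.49), DAB2 (5.34) and YPEL4 (5.32) among the genes named for opposite responses; HBB, at 0 counts in untreated cells at 24 h, is given only by its bounds above. SECTM1, a secreted and transmembrane protein of myeloid cells, was 17.8-fold lower with LTA at 4 h (95% counting interval 5.78 to 88.9), on 3 counts against 55, so its fitted value rests on few counts. In the other direction were CCND1 (-3.49), KCNH4, a potassium channel gene (-3.02), GYPC (-2.69), ANO9 (-2.61) and FAM95C (-2.52), the last sharing 46.9% of its exon bases with other genes on the same strand. The response at 24 h was not called without untreated replicate 2 or treated replicate 1 at 24 h for CCND1, KCNH4, GYPC and ANO9, nor without treated replicate 2 at 24 h for the last 3 of these. YPEL4 at 24 h was not called without either untreated library or treated replicate 1 (adjusted p = 0.094 to 0.23), and FAM95C at 4 h not without treated replicate 1 (0.59, adjusted p = 0.078).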

How the results depend on the processing

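The count of genes called in the interaction, 2461, was 2508 with upper-quartile scaling, 3042 with library totals alone, 2367 with DESeq2, 2436 with limma-voom, 2799 with no filter on low counts, 2328 with the stricter filter and 2282 in the 8 libraries alone. Library totals alone moved the median interaction of all genes from 0.04 to 0.30 and the median response at 4 h to -0.32. Of the counts by opposite responses, that of genes going from higher to lower was 28 with library totals alone, against 49. The dose difference of 22 genes was 161 with DESeq2 and 395 with no filter.

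The labels state no pairing of the replicate numbers shared by the groups. Of 15 pairs of groups, 5 had a correlation of deviations over 0.1 (range -0.20 to 0.38). At 4 h the correlations were 0.38 (untreated and 1 µg/ml), 0.13 (untreated and 10 µg/ml) and 0.21 (both doses). At 24 h they were -0.07, -0.20 and 0.09 in the same order. Whether libraries were paired at 4 h was not settled by these values. With the replicate block the interaction count was 2635, 1656 higher and 979 lower, and the dose difference 92.

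With 1 library left out at a time the interaction count ran from 1614 to 2270, that at 10 µg/ml from 2710 to 4051, the response at 4 h from 3404 to 4569, the response at 24 h from 1139 to 2715, the control change from 3138 to 4888 and the treated change from 4312 to 5986. The classes ran from 308 to 533 (control alone), 652 to 1028 (treated alone), 221 to 342 (opposite), 231 to 358 (same direction) and 23 to 46 (neither). Opposite responses ran from 141 to 243 (lower then higher) and 10 to 48 (higher then lower), and the dose difference from 2 to 66. A pair left with 1 library was assumed to vary like the other groups. No value of a named gene that was called changed direction. With 2 libraries a group, small differences go undetected, and the causes of the moves were not tested.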
